A study of Mus musculus with 6 samples.

Results

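Glycosaminoglycan chain synthesis and sulfation was followed through 45 genes for the enzymes and transporters that build chondroitin, dermatan and heparan sulfate and place sulfate on them. Members are picked by gene symbol, a rule that uses no measured value, but the list was chosen with earlier results of these data known. All 45 were among the 31613 genes of the deposited count table, and 44 were among the 16519 genes with enough counts to be tested. RNA was sequenced from mDPCs (mouse dental papilla cells) at postnatal day 6; the papilla is the mesenchyme inside a tooth germ, and its outer cells become the odontoblasts that lay down dentin. There were 3 libraries of *Dmp1*-Cre;*Setd2* fl/fl mice, named S2D in the labels and here, and 3 of control mice, all on the C57BL/6J background, and each held RNA pooled from 3 biological replicates. In S2D mice both *Setd2* alleles carry loxP sites and Cre is driven by the *Dmp1* promoter, which acts in the odontoblast layer, whereas the cells collected came from the papilla as a whole. The controls are *Setd2* fl/fl mice in the study's methods and wild type in the sample labels. The animal list of the study holds fewer mice per genotype than wholly separate pools of this size would need, so the pools of a group may share animals, and p-values measure only the spread between these libraries, part of which may be technical.

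Sulfated glycosaminoglycans are long sugar chains attached to serines of proteoglycan core proteins. A linker of xylose, galactose, galactose and glucuronic acid is built first. The next sugar decides the chain: N-acetylgalactosamine opens chondroitin sulfate, parts of which become dermatan sulfate when glucuronic acid is turned into iduronic acid, and N-acetylglucosamine opens heparan sulfate. Sulfotransferases in the Golgi then set sulfate at defined positions, using the donor PAPS. In dentin and its unmineralized predecessor, predentin, chondroitin and dermatan sulfate are carried by small leucine-rich proteoglycans such as biglycan, and heparan sulfate on cell surfaces binds growth factors.

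Depth lay between 18557647 and 19164358 counts in the S2D libraries and between 18894240 and 19210750 counts in the control libraries, and the members held between 0.282% and 0.311% of them. *Setd2* itself did not check the labels. It had 102, 98.5 and 96.0 CPM (counts scaled to library size, as TMM-normalized CPM) in S2D replicates 1, 2 and 3, against 98.0, 96.5 and 92.0 CPM in control replicates 1, 2 and 3. Its log2 fold change was 0.05 (SE 0.09, edgeR adjusted p = 0.900). This count was taken over the whole gene and all cells collected, and why it did not differ was not tested. Replicate 3 of each group stood apart. The summed level of 12 dental epithelium markers was 7255, 2337 and 50512 CPM in S2D replicates 1, 2 and 3, against 7504, 2828 and 30654 CPM in control replicates 1, 2 and 3. The 8 odontoblast markers summed to 5981, 4016 and 36658 CPM in S2D replicates 1, 2 and 3, against 70826, 73204 and 81053 CPM in controls, and 6 of the 8 were lower at the thresholds used for the members. In this sum S2D replicate 3 therefore lay between S2D replicates 1 and 2 and the controls. Most of the sum in S2D libraries was *Col1a1*, at 4855, 3267 and 29999 CPM in replicates 1, 2 and 3. For *Ibsp* (38.3 CPM) and *Smpd3* (217 CPM), S2D replicate 3 lay within the control range. Neutrophil markers (8 listed, 5 tested, 2 higher) summed to 5.65 to 137 CPM in S2D libraries, against 4.59 to 21.1 CPM in controls. The 13 mitochondrially encoded genes (10 tested, 7 higher) summed to 23062 to 43329 CPM in S2D libraries, against 14827 to 21126 CPM in controls. Of 7 osteoblast markers 2 were lower, the macrophage and endothelial markers had no call, and 1 of 7 muscle markers had enough counts to be tested. The part of these differences in the results below was not tested, and in such bulk libraries fewer cells of a type and less RNA per cell cannot be told apart.

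Among the enzymes compared, 4 members were lower in S2D mDPCs while none was higher. The lower genes were *Dsel*, *Chst13*, *Chst11* and *Csgalnact1*, each of which acts on chondroitin or dermatan chains. A gene passed here if its unadjusted p from edgeR's quasi-likelihood test was under 0.05 and its log2 fold change was at least 0.58 in size; these are called the study's thresholds. These 4 of 44 members (9.09%) stood beside 2.71% of all genes tested that were lower, and the 0 higher members beside 1.1% of all genes. Adjusted over the whole table, edgeR at 0.05 called 0% of genes lower and 0% higher, members included, although 729 genes had an unadjusted p under 0.05 with lower and 523 with higher values. Of the members 6 were lower and 0 higher at that unadjusted p, the additions being *Chsy3* and *Chpf2*. By another count, 8 of 44 members (18.2%) had every S2D library below every control library, beside 7.98% of all genes tested. In the opposite direction 2 of 44 (4.55%) did so, beside 7.26% of all genes.

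**Figure D1:**
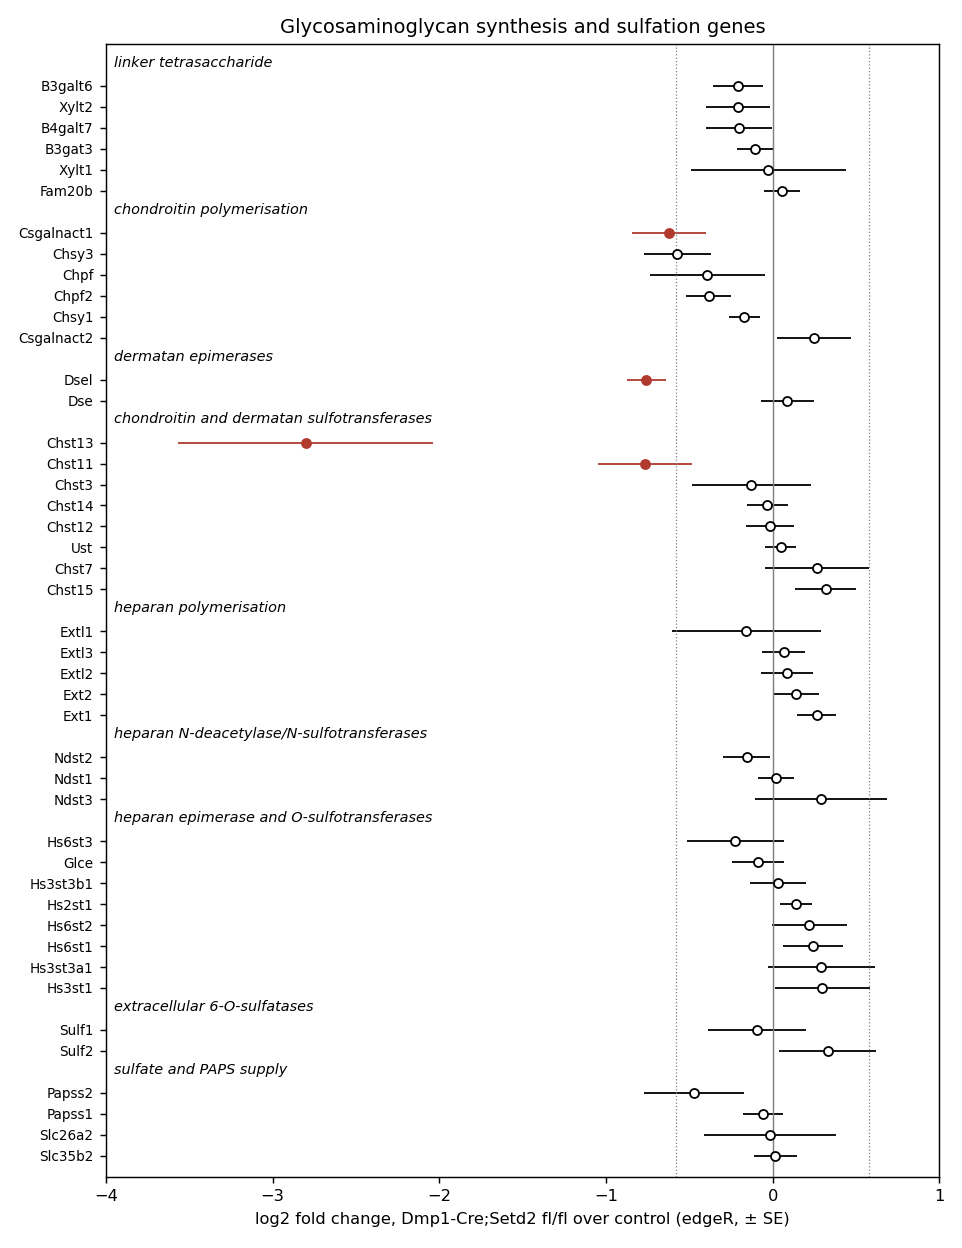
Log2 fold change of S2D over control libraries (x axis, edgeR, n = 3 each) for the 44 tested members, grouped by role. Points are estimates, bars are ± 1 SE, dotted lines mark the threshold of 0.58 in each direction, and the 4 filled red points passed the study's thresholds. They all belong to the chondroitin and dermatan groups, and heparan members lie between -0.22 and 0.33.

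The values are set out here by branch, and a difference between branches was not tested. In the chondroitin and dermatan branch, 16 genes were tested and 4 (25%) were lower, beside 2.71% of all genes tested. In this branch 11 genes had a negative log2 fold change, and the median was -0.15. In the heparan branch, 18 genes were tested, none passed in either direction, 13 had a positive log2 fold change, and the median was 0.11. The 6 linker genes, which serve both branches, had the same median as the chondroitin and dermatan branch, -0.15, with none called. The 4 genes of sulfate supply had a median of -0.04 with none called. Across all members the median was -0.02, beside 0.02 for all genes tested. By library, median log2 levels of the chondroitin and dermatan branch relative to the control mean were -0.20, -0.36 and -0.16 in S2D replicates 1, 2 and 3. They were -0.09, -0.09 and 0.16 in control replicates 1, 2 and 3. The heparan branch had 0.05, 0.06 and 0.14 in S2D libraries, against -0.06, -0.03 and 0.15 in controls. Summed over its genes, the chondroitin and dermatan branch held 604, 622 and 717 CPM in S2D replicates 1, 2 and 3, against 760, 757 and 860 CPM in control replicates 1, 2 and 3. The 2 groups did not overlap in this sum, and replicate 3 was the highest of its group in each. The sum contains the 4 called genes and is not separate from their calls. Among them, mean CPM was 69.2 in S2D against 117 in control libraries for *Dsel*, and 68.5 against 116 for *Chst11*. The heparan branch held 1673, 1793 and 1750 CPM in S2D libraries, against 1486, 1623 and 1744 CPM in controls, which overlapped.

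The member with the smallest p was *Dsel* (ENSMUSG00000038702, chromosome 1, 111858702 to 111864918, minus strand), which encodes a dermatan sulfate epimerase-like enzyme that turns glucuronic acid into iduronic acid. *Dsel* had 67.8, 69.5 and 70.3 CPM in S2D replicates 1, 2 and 3, against 132, 116 and 103 CPM in control replicates 1, 2 and 3. The 3 S2D values lay close together (69.2 ± 1.27 CPM, SD, n = 3) and under every control, while the controls spread more widely (117 ± 14.3 CPM, SD, n = 3). Its log2 fold change was -0.76 (SE 0.12, unadjusted p = 0.000345, adjusted p = 0.450 in edgeR). In a blocked fit, with libraries paired by replicate number, its adjusted p was 0.0273; that fit called 0.799% of all genes lower and 0.176% higher, and *Dsel* was the single member called there. Leaving out each library in turn kept *Dsel* past the study's thresholds, at -0.84 to -0.66. On the log2 scale, *Dsel* in replicate 3 departed from the mean of replicates 1 and 2 by 0.03 in S2D libraries and by -0.26 in controls. How *Dsel* relates to the odontoblast markers, which were higher in S2D replicate 3, was not tested.

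Its partner *Dse*, the other dermatan epimerase, had 61.7, 73.6 and 49.1 CPM in S2D libraries, against 58.6, 61.3 and 53.7 CPM in controls. The groups overlapped, and the log2 fold change was 0.09 (SE 0.16, 95% interval -0.29 to 0.46). Within each library, the count of *Dsel* divided by that of *Dse* was 1.10, 0.943 and 1.43 in S2D replicates 1, 2 and 3, against 2.25, 1.89 and 1.92 in control replicates 1, 2 and 3. This ratio does not depend on the scaling between libraries, and its groups did not overlap. Like the other paralog ratios below, it was chosen after its values were seen and is not separate from the values of its genes.

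*Chst11*, *Chst12* and *Chst13* encode sulfotransferases that put sulfate on the 4-O position of N-acetylgalactosamine in chondroitin. *Chst13* (ENSMUSG00000056643, chromosome 6, 90308349 to 90325185, minus strand) was counted 9, 5 and 47 times in S2D replicates 1, 2 and 3, against 124, 123 and 168 times in control replicates 1, 2 and 3. Scaled to library size, these were 0.430, 0.265 and 2.55 CPM, against 6.58, 6.47 and 9.52 CPM in controls. The groups did not overlap, but S2D replicate 3 was well above its replicates 1 and 2. The log2 fold change of *Chst13* was -2.80 (SE 0.77, unadjusted p = 0.00870, adjusted p = 0.625 in edgeR), the most negative of the members tested. It was -4.40 without S2D replicate 3 and between -2.90 and -2.35 without any other library, past the study's thresholds each time.

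*Chst11* (ENSMUSG00000034612, chromosome 10, 82985498 to 83195900, plus strand) had 56.1, 47.8 and 101 CPM in S2D replicates 1, 2 and 3, against 112, 105 and 131 CPM in control replicates 1, 2 and 3. S2D replicate 3 lay just under the lowest control. The log2 fold change was -0.76 (SE 0.28, unadjusted p = 0.0309, adjusted p = 0.636 in edgeR). *Chst11* no longer passed without S2D replicate 1 (-0.64) or 2 (-0.56), or without control replicate 1 (-0.79) or 3 (-0.67), and it was -1.16 without S2D replicate 3. An antisense gene on the opposite strand of its locus was counted 49 times over all libraries, against 10373 for *Chst11*, and the counting did not use strand. *Chst12*, by contrast, had 29.0, 39.2 and 31.1 CPM in S2D libraries, against 31.0, 33.7 and 35.9 CPM in controls. Its groups overlapped, with a log2 fold change of -0.02 (SE 0.14, 95% interval -0.36 to 0.32). The count of *Chst13* divided by that of *Chst12* was 0.0148, 0.00676 and 0.0820 in S2D libraries, against 0.212, 0.192 and 0.265 in controls, without overlap. For *Chst11* over *Chst12* the ratio was 1.93, 1.22 and 3.26 in S2D libraries, against 3.62, 3.13 and 3.65 in controls, and S2D replicate 3 lay inside the control range.

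**Figure D2:**
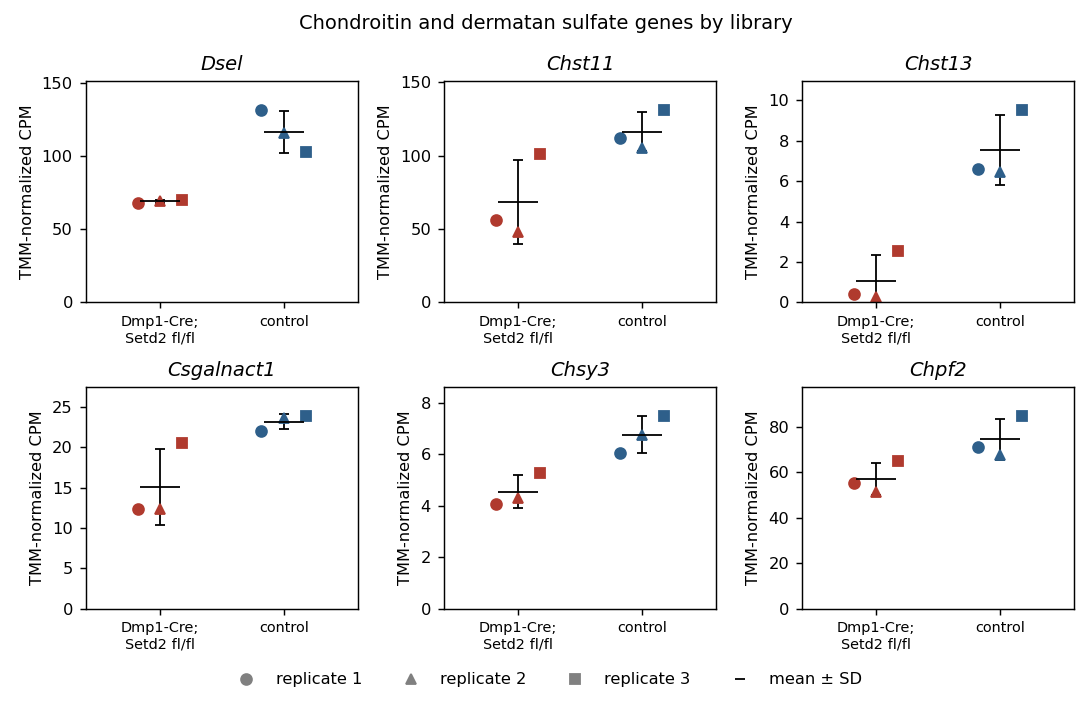
TMM-normalized CPM (y axis, starting at 0) of the 6 members lower at an unadjusted p under 0.05, by library. Red points are S2D and blue points control libraries, symbols mark the replicate number, and black bars give the mean ± SD (n = 3); a lower bar that would pass 0 ends at the axis. *Dsel* sits between 67.8 and 70.3 CPM in all 3 S2D libraries, whereas replicate 3 of *Chst11*, *Chst13* and *Csgalnact1* lies above replicates 1 and 2.

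The DNA just before the start sites of the 3 lower genes with a RefSeq window, *Dsel*, *Chst11* and *Chst13*, is shown beside that of *Chst12*, which has the reaction of *Chst11* and *Chst13* but was not called. Each line gives the 250 bases before the start on the gene's own strand, from RefSeq on build GRCm38.p6, and capitals mark the GC box GGGCGG or its reverse complement CCGCCC, the binding letters of Sp family factors. The windows are chr1:111864919-111865168, chr10:82985247-82985496, chr6:90325186-90325435 and chr5:140505359-140505608 in the order listed.
*Dsel*: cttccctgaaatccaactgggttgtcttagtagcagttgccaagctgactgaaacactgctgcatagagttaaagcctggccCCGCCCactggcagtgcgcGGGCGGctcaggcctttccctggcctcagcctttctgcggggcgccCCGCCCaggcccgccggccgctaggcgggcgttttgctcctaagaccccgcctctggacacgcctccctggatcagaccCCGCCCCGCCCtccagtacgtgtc
*Chst11*: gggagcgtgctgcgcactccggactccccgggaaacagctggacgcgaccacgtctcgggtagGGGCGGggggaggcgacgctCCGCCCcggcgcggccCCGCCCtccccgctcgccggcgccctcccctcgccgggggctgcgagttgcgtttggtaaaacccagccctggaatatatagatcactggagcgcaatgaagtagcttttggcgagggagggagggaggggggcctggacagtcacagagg
*Chst13*: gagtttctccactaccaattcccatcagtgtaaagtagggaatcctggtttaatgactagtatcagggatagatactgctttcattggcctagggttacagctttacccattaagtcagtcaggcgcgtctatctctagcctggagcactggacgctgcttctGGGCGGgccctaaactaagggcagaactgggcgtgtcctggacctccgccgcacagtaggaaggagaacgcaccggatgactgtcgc
*Chst12*: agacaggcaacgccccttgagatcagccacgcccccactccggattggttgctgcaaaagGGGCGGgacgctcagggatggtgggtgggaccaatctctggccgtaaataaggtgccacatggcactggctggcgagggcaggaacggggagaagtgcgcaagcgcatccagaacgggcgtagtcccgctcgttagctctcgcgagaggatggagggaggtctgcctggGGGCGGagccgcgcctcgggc
The GC box occurred 5 times in *Dsel* (the last pair sharing 1 base), 3 times in *Chst11*, 1 time in *Chst13* and 2 times in *Chst12*. Among other members that were not called, it occurred 6 times in *Hs6st1*, 4 times in *Chst14* and 0 times in *Ext2*. Of the 32851 RefSeq windows of this length, 32.74% held it on either strand. The Runx motif TGTGGT (14.05% of windows), the TATA box TATAAA (12.37%) and the AP-1 motif TGANTCA (6.75%) matched in none of the 4 windows on either strand. The E-box CANNTG (66.22% of windows) matched 2 times in *Dsel*, 1 time in *Chst11* and 1 time in *Chst12*. G and C made up 65.6%, 70.0%, 52.8% and 65.6% of the bases of *Dsel*, *Chst11*, *Chst13* and *Chst12*, beside a median of 52.4% over all windows. These matches describe letters and not occupied sites.

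The remaining sulfotransferases of these chains did not pass. *Chst14*, which sulfates dermatan at the 4-O position, had a log2 fold change of -0.03 (SE 0.12, 95% interval -0.32 to 0.26). *Chst15*, which adds a further sulfate at the 6-O position of sulfated N-acetylgalactosamine, had 35.9, 41.0 and 44.0 CPM in S2D libraries, against 26.7, 29.1 and 41.1 CPM in controls. Its log2 fold change was 0.32 (SE 0.18, unadjusted p = 0.127), and *Fgfr2*, a more highly counted gene, overlaps its locus on the same strand. The chondroitin 6-O-sulfotransferases *Chst3* and *Chst7* had values of -0.13 (SE 0.36) and 0.26 (SE 0.31), and *Ust*, which sulfates the uronic acid at the 2-O position, 0.05 (SE 0.09).

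Set per kilobase of exon, the order of these sulfotransferases within controls ran from *Chst14* (mean 23.8 CPM per kb) and *Chst11* (20.5) through *Chst12* (7.01), *Ust* (6.43), *Chst15* (4.32), *Chst13* (2.25) and *Chst3* (1.73) to *Chst7* (0.487). In S2D libraries the means were 23.3 for *Chst14*, 12.1 for *Chst11*, 6.92 for *Chst12*, 6.65 for *Ust*, 5.39 for *Chst15*, 1.59 for *Chst3*, 0.585 for *Chst7* and 0.324 for *Chst13*. *Chst11* lay between 8.42 and 17.9 CPM per kb in S2D libraries, below the 21.9 to 25.6 of *Chst14* there, whereas in controls its 18.6 to 23.1 overlapped the 22.1 to 26.8 of *Chst14*. *Chst12* and *Ust* were not separated in either group. *Chst13* was the lowest of the 8 in S2D replicates 1 and 2, at 0.129 and 0.0794 CPM per kb, and reached 0.765 in replicate 3.

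**Figure D3:**
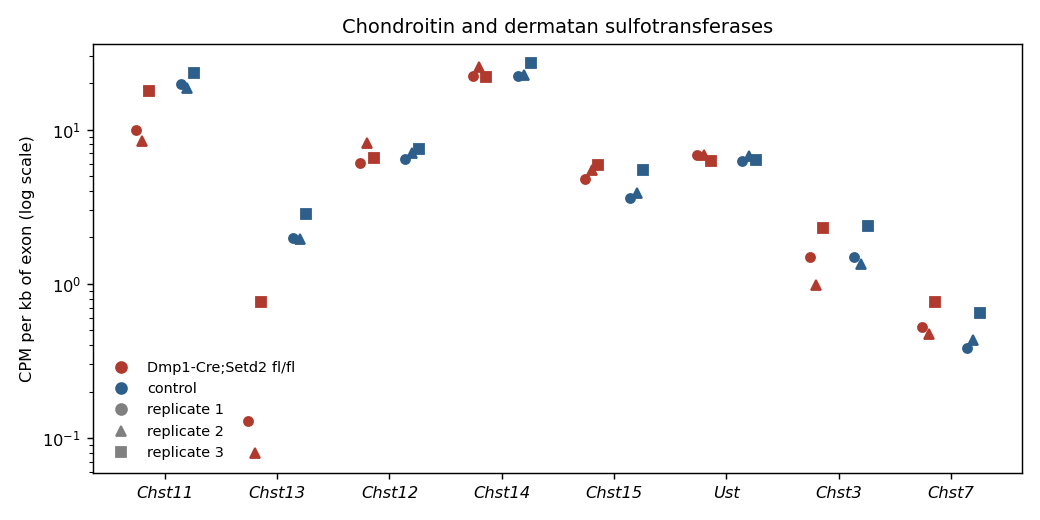
Level of the 8 chondroitin and dermatan sulfotransferases in CPM per kb of exon (y axis, log scale) in each library. Red points on the left of each gene are S2D and blue points on the right control libraries, with symbols for the replicate number. *Chst13* spans 0.0794 to 0.765 in S2D libraries and 1.94 to 2.85 in controls, while *Chst14* stays between 21.9 and 26.8 in all 6 libraries.

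Of the 6 genes of chondroitin chain growth, 1 was called, and it was lower. *Csgalnact1* (ENSMUSG00000036356, chromosome 8, 68356781 to 68735146, minus strand) encodes the transferase that adds the first N-acetylgalactosamine to the linker. *Csgalnact1* had 12.4, 12.3 and 20.5 CPM in S2D replicates 1, 2 and 3, against 22.1, 23.6 and 23.9 CPM in control replicates 1, 2 and 3. The groups did not overlap, but replicate 3 was near the controls. The log2 fold change was -0.62 (SE 0.22, unadjusted p = 0.0255, adjusted p = 0.626 in edgeR). The call was lost without S2D replicate 1 (-0.50) or 2 (-0.50) and without control replicate 1 (-0.66), 2 (-0.61) or 3 (-0.60), while the value was -0.91 without S2D replicate 3. Its paralog *Csgalnact2* had 29.5, 37.0 and 20.2 CPM in S2D libraries, against 26.8, 22.5 and 23.6 CPM in controls. These overlapped, with a log2 fold change of 0.25 (SE 0.22, 95% interval -0.28 to 0.77). The count of *Csgalnact1* divided by that of *Csgalnact2* was 0.420, 0.333 and 1.01 in S2D libraries, against 0.822, 1.05 and 1.01 in controls, with overlap.

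The chondroitin synthases and their polymerizing factors lengthen the chain. *Chsy3*, a synthase at low level, had 4.07, 4.29 and 5.27 CPM in S2D libraries, against 6.05, 6.74 and 7.48 CPM in controls. Its groups did not overlap and its unadjusted p was 0.0243, but its log2 fold change of -0.57 (SE 0.20) fell short of the threshold of 0.58. *Chsy3* passed at -0.69 without S2D replicate 3, -0.65 without control replicate 1, -0.61 with replicates 1 and 2 alone, -0.65 in limma voom and -0.58 with library sizes that left out the 100 highest genes. *Chpf2*, a polymerizing factor, had 55.3, 51.1 and 64.7 CPM in S2D libraries, against 71.0, 67.7 and 84.6 CPM in controls, again without overlap. Its log2 fold change was -0.38 (SE 0.14, unadjusted p = 0.0257). *Smarcd3* overlaps *Chpf2* on the opposite strand over 3739 bases, with 5375 counts over all libraries against 7431 for *Chpf2*. The counting did not use strand, and how far this overlap bears on the count of *Chpf2* was not tested. *Chsy1*, the more highly expressed synthase, had 51.7, 52.5 and 54.0 CPM in S2D libraries, against 59.3, 62.5 and 56.4 CPM in controls. The gap was small, with a log2 fold change of -0.17 (SE 0.09, unadjusted p = 0.109). The count of *Chsy3* divided by that of *Chsy1* was 0.0786, 0.0817 and 0.0975 in S2D libraries, against 0.102, 0.108 and 0.133 in controls, without overlap. *Chpf*, the other polymerizing factor, had 64.8, 56.1 and 120 CPM in S2D libraries, against 81.4, 89.7 and 145 CPM in controls, and replicate 3 was the highest in both groups. Its log2 fold change was -0.39 (SE 0.34, unadjusted p = 0.293). Leaving out 1 library moved *Chpf* from -0.80 without S2D replicate 3, where it passed the study's thresholds, to -0.10 without control replicate 3; it was -0.26 and -0.19 without S2D replicates 1 and 2. In all, 4 of the 6 genes of chondroitin chain growth did not overlap between groups, all lower, beside 7.98% of all genes tested.

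Linker genes, which serve both branches, had no call. The values lay between -0.21 and 0.06, with 5 of 6 negative. *B3galt6*, which adds the second galactose, was the linker gene with the smallest p and had 10.1, 11.1 and 10.6 CPM in S2D libraries, against 11.4, 11.7 and 13.7 CPM in controls. The groups were separated by a narrow gap, and the log2 fold change was -0.21 (SE 0.15, unadjusted p = 0.209). *Xylt2*, a xylosyltransferase that starts the linker, *B4galt7*, which adds the first galactose, and *B3gat3*, which adds glucuronic acid, had log2 fold changes of -0.21 (SE 0.19), -0.20 (SE 0.20) and -0.11 (SE 0.11). *Fam20b*, the xylose kinase, had 0.06 (SE 0.11). *Xylt1*, the other xylosyltransferase, had -0.03 (SE 0.47), with 7.51, 4.67 and 12.4 CPM in S2D replicates 1, 2 and 3, against 6.21, 5.47 and 13.4 CPM in control replicates 1, 2 and 3.

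Heparan chain growth had no call. *Ext1*, which with *Ext2* forms the heparan sulfate polymerase, had 150, 169 and 148 CPM in S2D libraries, against 118, 128 and 144 CPM in controls. All 3 S2D values were above the controls, with a log2 fold change of 0.26 (SE 0.12, 95% interval -0.01 to 0.54, unadjusted p = 0.0597). *Ext2* had 166, 200 and 180 CPM in S2D libraries, against 147, 157 and 191 CPM in controls, which overlapped, with a log2 fold change of 0.14 (SE 0.14). *Extl3*, which adds the first N-acetylglucosamine, had 0.07 (SE 0.13), and the related *Extl2* and *Extl1* had 0.09 (SE 0.16) and -0.16 (SE 0.45). *Extl1* was at 9.71, 6.84 and 3.53 CPM in S2D replicates 1, 2 and 3, against 8.75, 9.63 and 4.03 CPM in control replicates 1, 2 and 3, so that replicate 3 was the lowest in both groups.

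N-deacetylase/N-sulfotransferases, which replace acetyl by sulfate on glucosamine and so open heparan chains to further sulfation, also had no call. *Ndst1* had 160, 143 and 135 CPM in S2D libraries, against 138, 146 and 149 CPM in controls, with a log2 fold change of 0.02 (SE 0.11). *Ndst2* had the smallest p of this group, with 60.8, 47.7 and 67.4 CPM in S2D libraries, against 63.4, 64.8 and 67.6 CPM in controls, and the groups overlapped. Its log2 fold change was -0.16 (SE 0.14, unadjusted p = 0.305). *Ndst3* lay between 1.43 and 3.86 CPM in S2D libraries and between 1.68 and 2.27 CPM in controls. *Ndst4* was counted 1, 0 and 1 times in S2D libraries, against 0, 0 and 0 times in controls, and was the member left out by the filter.

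The heparan epimerase *Glce* and the O-sulfotransferases gave log2 fold changes between -0.22 and 0.30, with 6 of 8 positive. *Hs2st1*, which sulfates iduronic acid at the 2-O position, had 91.8, 94.1 and 87.0 CPM in S2D libraries, against 79.0, 81.7 and 86.9 CPM in controls. The lowest S2D library and the highest control were almost equal, and the log2 fold change was 0.14 (SE 0.09, 95% interval -0.08 to 0.36, unadjusted p = 0.183). Among the 6-O-sulfotransferases, *Hs6st1* had a log2 fold change of 0.24 (SE 0.18), *Hs6st2* 0.22 (SE 0.22) and *Hs6st3*, at under 1.01 CPM in each library, -0.22 (SE 0.29). The 3-O-sulfotransferases *Hs3st1*, *Hs3st3a1* and *Hs3st3b1* had 0.30 (SE 0.29), 0.29 (SE 0.32) and 0.03 (SE 0.17), and *Glce* had -0.09 (SE 0.16).

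*Sulf1* and *Sulf2* encode extracellular sulfatases that remove 6-O-sulfate from finished heparan chains, and had the highest CPM of the members. *Sulf2* had 455, 613 and 269 CPM in S2D replicates 1, 2 and 3, against 349, 411 and 303 CPM in control replicates 1, 2 and 3. *Sulf1* had 332, 268 and 563 CPM in S2D replicates 1, 2 and 3, against 347, 383 and 512 CPM in control replicates 1, 2 and 3. In both groups replicate 3 had the highest *Sulf1* and the lowest *Sulf2*. Counts of *Sulf1* divided by those of *Sulf2* were 0.729, 0.437 and 2.10 in S2D replicates 1, 2 and 3, against 0.994, 0.932 and 1.69 in control replicates 1, 2 and 3. The log2 fold changes were 0.33 (SE 0.29, unadjusted p = 0.295) for *Sulf2* and -0.10 (SE 0.29) for *Sulf1*. Without S2D replicate 3, *Sulf2* passed the study's thresholds at 0.59.

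**Figure D4:**
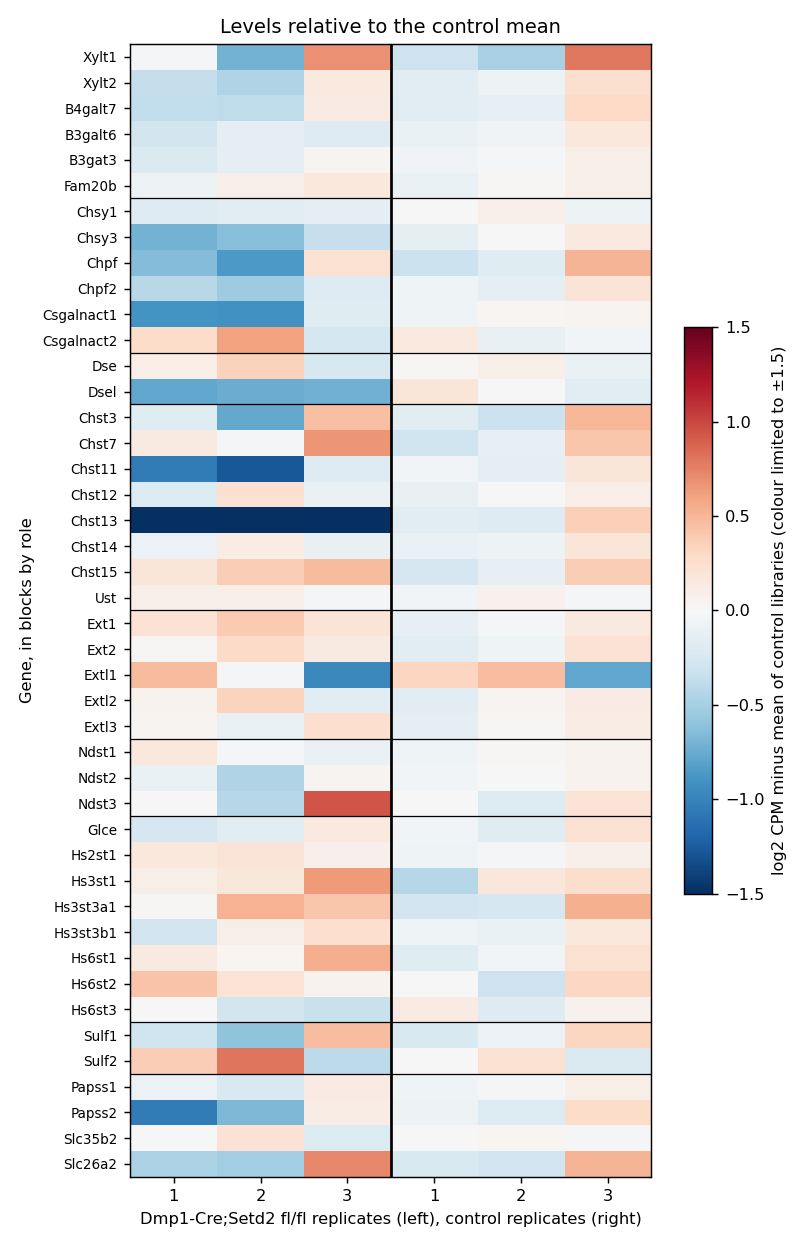
Log2 CPM of each tested member (rows, in blocks by role) minus the mean of the 3 control libraries, for S2D replicates 1 to 3 on the left of the line and control replicates 1 to 3 on the right. Red is above and blue below the control mean, with colours limited to 1.5 in each direction. *Dsel* and *Chst13* are blue in all 3 S2D libraries, and within the S2D group *Sulf1* and *Sulf2* change colour between replicates 1 and 2 and replicate 3.

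Sulfate supply had no call. *Papss2*, 1 of the enzymes that make PAPS, had 27.1, 35.3 and 60.9 CPM in S2D replicates 1, 2 and 3, against 53.7, 48.8 and 68.5 CPM in control replicates 1, 2 and 3. Replicates 1 and 2 were under every control and replicate 3 was within the control range. The log2 fold change was -0.47 (SE 0.30, unadjusted p = 0.164), and it passed the study's thresholds at -0.87 without S2D replicate 3. *Papss1*, the other PAPS synthase, had 127, 116 and 148 CPM in S2D libraries, against 129, 134 and 144 CPM in controls, with a log2 fold change of -0.06 (SE 0.12). The count of *Papss2* divided by that of *Papss1* was 0.213, 0.304 and 0.413 in S2D libraries, against 0.415, 0.364 and 0.477 in controls, with overlap. *Slc35b2*, which carries PAPS into the Golgi, and *Slc26a2*, which takes sulfate into the cell, had 0.02 (SE 0.13) and -0.02 (SE 0.39).

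Replicate 3 of each group also stood apart in many members. In 33 of 44 members replicate 3 departed from the mean of replicates 1 and 2 in the same direction in both groups. It was higher by at least 0.58 on the log2 scale in both groups for 5 members, *Xylt1*, *Chpf*, *Chst3*, *Chst7* and *Slc26a2*, and lower for 1, *Extl1*. The departures of *Slc26a2* were 1.22 in S2D libraries and 0.76 in controls, and those of *Xylt1* were 1.03 in S2D libraries and 1.20 in controls. The departures of 3 lower members were larger in S2D libraries than in controls, at 2.88 against 0.55 for *Chst13*, 0.97 against 0.27 for *Chst11* and 0.73 against 0.06 for *Csgalnact1*. Among the 12 dental epithelium markers, the enamel gene *Amelx* departed by 3.77 in S2D libraries and 2.87 in controls, whereas *Klk4*, *Odam* and *Epcam* departed by 3.80, 3.02 and 2.40 in S2D libraries and by -0.02, 0.02 and 0.16 in controls, and *Amtn* by -0.12 in S2D libraries and -2.91 in controls.

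**Figure D5:**
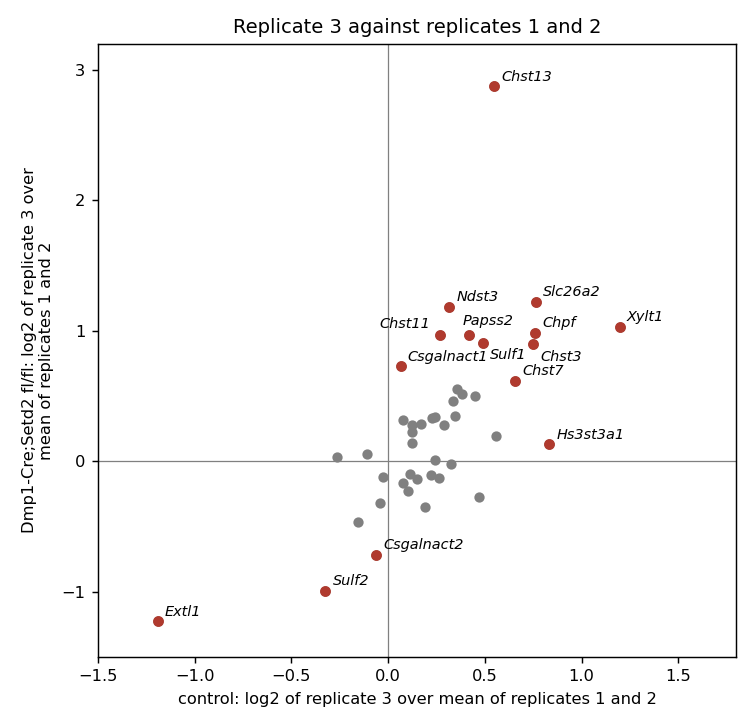
Log2 ratio of replicate 3 to the mean of replicates 1 and 2 within the S2D group (y axis) and within the control group (x axis), 1 point per tested member. Red, named points depart by at least 0.58 in either group. *Chst13* stands highest at 2.88 and 0.55, and *Dsel*, unnamed near the origin, is at 0.03 and -0.26.

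With replicates 1 and 2 alone, the differences of the 4 lower members were larger. In that fit the log2 fold changes were -0.84 for *Dsel*, -4.18 for *Chst13*, -1.06 for *Chst11* and -0.88 for *Csgalnact1*. The adjusted p in edgeR was under 0.05 for these 4 and for *Chpf* (-0.49) and *Papss2* (-0.71), while 4.48% of all genes were lower and 2.33% higher at that threshold. DESeq2 on all 6 libraries gave an adjusted p under 0.05 for *Dsel* and *Chst13*, with 0.768% lower and 0.158% higher among the 15225 genes it gave an adjusted p. Limma voom with quality weights did so for 7 members, all lower (*Chpf2*, *Chst11*, *Chst13*, *Chsy3*, *Csgalnact1*, *Dsel* and *Papss2*), with 5.98% of genes lower and 2.4% higher. *Dsel* and *Chst13* were past the study's thresholds in every fit in which they were tested; requiring 10 counts or more per library removed *Chst13*.

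The chains are carried by core proteins, and among the chondroitin and dermatan sulfate core protein genes 3 of 10 tested were lower and none was higher, beside 2.71% and 1.1% of all genes tested. *Bgn*, which encodes biglycan, had 776, 660 and 1194 CPM in S2D libraries, against 1693, 1648 and 1964 CPM in controls. Its groups did not overlap, and the log2 fold change was -1.01 (SE 0.24, edgeR adjusted p = 0.558, and 0.0298 with the replicate block). *Ptprz1*, a receptor phosphatase that carries chondroitin sulfate, had 19.9, 12.1 and 30.0 CPM in S2D libraries, against 114, 108 and 84.8 CPM in controls. Its log2 fold change was -2.31 (SE 0.33, edgeR adjusted p = 0.450, and 0.148 with the block). *Epyc*, which encodes epiphycan, was at 2.49, 3.08 and 1.36 CPM in S2D libraries, against 6.63, 6.84 and 3.40 CPM in controls, a log2 fold change of -1.28 (SE 0.40, edgeR adjusted p = 0.625, and 0.0335 with the block). *Bcan*, which encodes brevican, had 14.1, 5.94 and 40.9 CPM in S2D libraries, against 47.2, 45.1 and 79.8 CPM in controls, without overlap. It did not pass (edgeR unadjusted p = 0.0596, and adjusted p = 0.243 with the block). Of the 10 genes, 8 had a negative and 2 a positive log2 fold change. The positive ones were *Srgn*, at 0.82 (SE 0.37, edgeR unadjusted p = 0.0621, and adjusted p = 0.0651 with the block), and *Dcn*, at 0.06 (SE 0.28). The highly counted *Dcn* and *Vcan* had means of 1718 and 745 CPM in S2D libraries, against 1653 and 795 CPM in controls.

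Of 14 heparan sulfate core protein genes tested, 1 was higher and none was lower, beside 1.1% and 2.71% of all genes tested. This was *Tgfbr3*, a coreceptor for transforming growth factor beta, with 23.0, 25.7 and 30.5 CPM in S2D libraries, against 15.0, 15.8 and 19.6 CPM in controls. Its groups did not overlap, and the log2 fold change was 0.65 (SE 0.17, edgeR adjusted p = 0.604, and 0.0435 with the block). The syndecan genes *Sdc4* and *Sdc3* had log2 fold changes of 0.35 (SE 0.13) and -0.54 (SE 0.26) and did not pass. With the block, their edgeR adjusted p was 0.199 and 0.129. *Hspg2* had 564, 457 and 1242 CPM in S2D replicates 1, 2 and 3, against 991, 1089 and 1626 CPM in controls. Its groups overlapped and it did not pass. Its log2 fold change of -0.71 (SE 0.40, edgeR adjusted p = 0.0723 with the block) was the most negative of the list. Of the 14 genes, 8 had a positive and 6 a negative log2 fold change.

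Genes that make and carry nucleotide sugars (17 tested), the single tested further heparan 3-O-sulfotransferase *Hs3st5* (0.34, SE 0.18) and genes of glycosaminoglycan breakdown (15 tested) had no call in either direction. The smallest p of the breakdown list belonged to *Hpse*, which encodes the heparan-cutting enzyme heparanase, with 30.8, 36.6 and 32.1 CPM in S2D libraries, against 47.6, 45.3 and 43.4 CPM in controls. The groups did not overlap and the unadjusted p was 0.00454, but the log2 fold change of -0.45 (SE 0.11) was smaller than the threshold. *Galns*, the lysosomal 6-sulfatase, had -0.36 (SE 0.13). In the nucleotide sugar list, *Slc35b3*, a second PAPS transporter, had 35.3, 35.5 and 47.8 CPM in S2D libraries, against 55.5, 50.7 and 54.9 CPM in controls, without overlap and with a log2 fold change of -0.44 (SE 0.14, unadjusted p = 0.0181). *Pgm3*, which serves the making of UDP-N-acetylglucosamine, had -0.38 (SE 0.12, unadjusted p = 0.0125), and *Ugp2*, which makes UDP-glucose, 0.55 (SE 0.22, unadjusted p = 0.0409).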

How the data were processed

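Bulk RNA-seq of P6 mDPCs (3 S2D and 3 control libraries, paired-end reads) was analysed from 1 deposited table. The authors deposited whole-number counts per gene, not normalized, made per the labels and methods with HISAT2 and HTSeq with strand ignored; in addition, Bowtie2, DESeq2 and the build GRCm39 stand in the submitters' processing notes. Start or end positions in the table equalled those of RefSeq GRCm38.p6 for 47.4% of shared genes and those of GENCODE vM39 on GRCm39 for 1.3%, so positions were read as GRCm38. The table's own comparison columns (fold changes, p-values) were not used.

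The test was the robust quasi-likelihood F test of edgeR 4.0.16 (R 4.3.3). Genes were kept by filterByExpr at a minimum count of 10, library sizes were scaled by TMM for tests and for CPM, and p-values of the 16519 genes were adjusted by Benjamini and Hochberg. SEs are the log2 fold change over the square root of F. Levels between genes were divided by exon length from GENCODE vM39. Depth per library lay between 18557647 and 19210750 counts.

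The members, gene lists, and tests were chosen with earlier results of these data known, and the ratios between paralogs after their values were seen. Per-library values are given for members past the thresholds in the main or blocked fit, members without overlap, the smallest p in each role, and those that decide an order of levels; in other lists, called genes and up to 4 with the smallest p.

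Alternatives were limma 3.58.1 voom, DESeq2 1.42.0, a replicate block, RLE size factors, totals that leave out the 100 highest genes, no filter, at least 10 counts in every library, each library left out, replicates 1 and 2 alone, a log2 fold change of at least 1, and an adjusted p under 0.1. Replicate numbers come from the labels. The main fit was unpaired, and libraries of the same number were treated as pairs in the blocked fit only. Such libraries deviated together (correlations over genes of 0.452, 0.464 and 0.662). Replicates 1 and 2 also correlated across numbers (0.454 and 0.379), so these values do not show that their numbers mark pairs. Every pair of libraries within a group differed by more than sampling noise. The edgeR fits with and without the block, DESeq2 and limma voom were first run on simulated counts, drawn without an effect of replicate 3. The other alternatives were not run on simulated counts. RefSeq promoter windows were found for 36 of 45 members.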

Additional observations from a re-analysis of the deposited data

How the results depend on the processing

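The count of 4 members lower at the study's thresholds was 2 to 7 when 1 library was left out and 1 (*Chst13*) at a log2 fold change of at least 1; it was 4 with the replicate block, which changed no other call of a member at those thresholds. Members higher at those thresholds numbered 0 to 1 when 1 library was left out. At an adjusted p under 0.05, members lower numbered 0 in edgeR, 1 with the replicate block, 2 in DESeq2, 7 in limma voom, 6 with replicates 1 and 2 alone, and 0 to 4 when 1 library was left out, with 4 reached when S2D replicate 3 was the one left out; the cause was not tested. Each count rests on 3 pooled libraries per group, of which replicate 3 stood apart in both.

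Several members that did not pass changed sign. In limma voom the log2 fold changes were 0.31 for *Xylt1*, -0.021 for *Fam20b*, 0.036 for *Chst3*, 0.0038 for *Chst14*, -0.14 for *Hs3st3b1* and 0.022 for *Hs6st3*. With replicates 1 and 2 alone they were 0.073 for *Xylt1*, 0.082 for *Chst12*, 0.11 for *Chst14*, -0.090 for *Ndst3* and -0.0012 for *Hs3st3b1*. With 1 library left out they ranged from -0.45 to 0.48 for *Xylt1*, -0.062 to 0.23 for *Dse*, -0.49 to 0.16 for *Chst3*, -0.16 to 0.073 for *Chst12*, -0.10 to 0.063 for *Chst14*, -0.52 to 0.15 for *Extl1*, -0.050 to 0.19 for *Extl2*, -0.033 to 0.15 for *Extl3*, -0.052 to 0.071 for *Ndst1*, -0.21 to 0.56 for *Ndst3*, -0.21 to 0.033 for *Glce*, -0.092 to 0.17 for *Hs3st3b1*, -0.47 to 0.11 for *Sulf1*, -0.16 to 0.018 for *Papss1*, -0.094 to 0.12 for *Slc35b2* and -0.55 to 0.28 for *Slc26a2*. RLE scaling, library sizes without the 100 highest genes, DESeq2, the replicate block and the filters on low counts changed the sign of no member.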
